A study of Ulva lactuca with 4 samples.

Results

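A total of 181 contigs of the Ulva lactuca transcriptome stood apart from the submerged control after 36 h of desiccation while the 24 h and 72 h libraries lay near that control. They were picked from 105451 contigs by their counts alone: at least 4-fold higher or lower at 36 h, within 2-fold of the control at 24 h and 72 h, and at least 50 scaled counts in the 36 h or the control library. A contig is an assembled stretch of transcript, and a scaled count is its number of reads divided by a size factor that brings the libraries to a common depth. Each ratio was taken after adding 1 to both scaled counts, unless reads are given with an interval. Of the 181 contigs, 70 were higher at 36 h and 111 were lower. In the comparison of 36 h with the control, 7.37% of all 41280 contigs with enough counts passed 4-fold on the higher side and 6.64% on the lower side. The contigs that also met the conditions on 24 h and 72 h made up 0.17% on the higher side and 0.269% on the lower side. Because these ratios chose the contigs, they are given as a description and carry no test.

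Ulva lactuca is a sheet-like green seaweed of the shore, and whole thalli were sampled. One library came from each of 4 conditions: thalli always under water (the control), and thalli held at 20% moisture with 24 h, 36 h or 72 h of desiccation. The labels give no strain, site, age or time of day, nor the time at which the control thalli were taken. No group had a replicate, so no difference could be set against a spread between thalli, and the 95% intervals below (exact Clopper-Pearson) cover counting error only. In RNA from whole thalli, fewer cells of a type and less RNA per cell cannot be told apart.

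Shore algae lose water when the tide leaves them exposed. Tolerant species are known to protect photosynthesis, to detoxify reactive oxygen, to accumulate compatible solutes and to keep proteins folded while they are dry, and the transcripts behind these processes can change briefly or for as long as the stress lasts. Which of them are among the 181 contigs cannot be said here, since the tables used pair the contigs with no gene name or protein description. A contig name such as c27708_g1_i2 places contig i2 in cluster g1 of assembly component c27708. Contigs of a cluster can be parts or variants of 1 gene and may share reads, so they are not independent. The 70 higher contigs fell into 54 clusters and the 111 lower contigs into 67. No cluster held contigs of both directions, but only 29 of the 121 clusters held 2 or more chosen contigs. As such contigs may share reads, nothing is read from this.

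Counted reads numbered 52643595 in the control library, 74243310 in the 24 h library, 71024673 in the 36 h library and 53279365 in the 72 h library. The higher contigs took 0.00448% of the reads of the control, 0.00587% at 24 h, 0.0663% at 36 h and 0.00653% at 72 h. The lower contigs took 0.0969% of the reads of the control, 0.0686% at 24 h, 0.0168% at 36 h and 0.0705% at 72 h. Both sets were thus a small part of each library, and each is visible as a peak or a dip at 36 h.

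Among the higher contigs, the median scaled count was 15.8 in the control, 21.8 at 24 h, 96.4 at 36 h and 23.0 at 72 h. The single contigs ranged between 50.6 and 6036 scaled counts at 36 h, against 0 to 190 in the control. The median ratio of 36 h to the control was 5.17, with a range of 4.02 to 220. Of the 70 contigs, 30 were under 5-fold and 20 at least 8-fold above the control. For 4 contigs with 0 reads in the control the fold was taken with 3 counts in place of the 0. This substitute is not an interval bound. With it, 16 contigs were at least 16-fold and 5 at least 100-fold higher, and the median ratio was again 5.17. The 20 contigs past 8-fold came from 12 clusters. A few clusters carried most of the reads, since c27708_g1 and c25074_g1 together held 71.1% of the reads that the higher contigs had at 36 h. On the other side, 37 of the 70 had under 100 scaled counts in both the 36 h and the control library.

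Among the lower contigs, the median scaled count was 252 in the control, 184 at 24 h, 48.9 at 36 h and 193 at 72 h. The single contigs ranged between 0 and 737 scaled counts at 36 h, against 50.9 to 4354 in the control. The median ratio of 36 h to the control was 0.198, which is 5.05-fold lower, and among contigs with reads at 36 h the folds ran from 4.01 to 60.5. Of the 111, 54 were under 5-fold and 22 at least 8-fold below the control. With 3 counts in place of the 0 for 1 contig without reads at 36 h, 7 were at least 16-fold and 0 at least 100-fold lower. The 22 contigs past 8-fold came from 17 clusters. The medians of both sets were about 5-fold from the control. Counts behind both sets were low beside the rest: the larger of the 36 h and control scaled counts had a median of 96.4 for the higher and 252 for the lower contigs, against 601 over all 41280 contigs. These counts grow with contig length, which was not used here, so they give the precision and not a level per length.

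**Figure D1:**
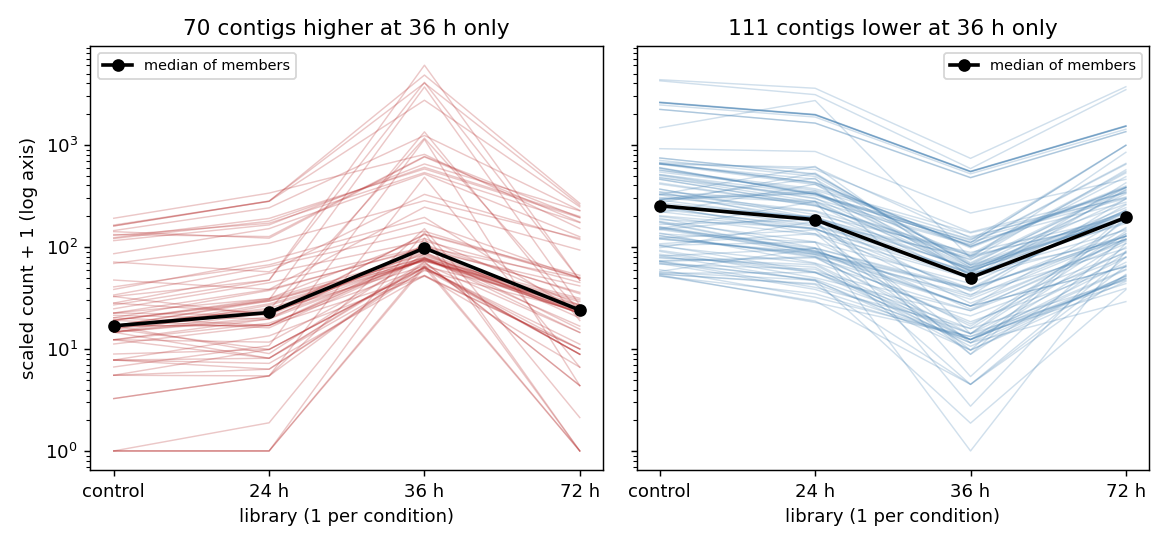
Scaled count + 1 on a log axis (vertical) of each of the 70 higher (left) and 111 lower (right) contigs in the control, 24 h, 36 h and 72 h libraries, 1 library per condition. Thin lines are contigs and the black line is the median of the set. The median peaks at 96.4 scaled counts at 36 h on the left and dips to 48.9 at 36 h on the right.

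The 24 h and 72 h libraries were not exactly level with the control. For the higher contigs the median ratio to the control was 1.47 at 24 h and 1.45 at 72 h, and for the lower contigs 0.682 and 0.676. Over all contigs with enough counts the median was 0.996 at 24 h and 1.04 at 72 h. The rule chose the contigs on these ratios and on the control count, and the medians over all contigs were not so limited. Nothing is read from the difference. All of these ratios share the 1 control library, so they are set side by side with no measure of likeness. The 36 h scaled count was also set against the geometric mean of 24 h and 72 h. Its median ratio was 4.22 for the higher and 0.242 for the lower contigs. The control is not in this ratio but did choose the contigs, and the rule itself fixes a gap of at least 2-fold. Both 24 h and 72 h lay within 1.5-fold of the control in 20 higher and 16 lower contigs.

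Against the neighbouring durations, the rule itself fixes a gap of at least 2-fold. Of the 70 higher contigs, 40 had a 36 h value at least 4-fold above 24 h, where 3.99% of all contigs with enough counts were, and 37 were at least 4-fold above 72 h, where 1.18% of all were. Of the 111 lower contigs, 53 were at least 4-fold below 24 h, where 3.48% of all were, and 60 were at least 4-fold below 72 h, where 11.7% of all were. Contigs at least 4-fold from both neighbours numbered 27 higher and 36 lower. The median gap was 5.16-fold from 24 h and 4.44-fold from 72 h for the higher contigs, and 3.62-fold and 4.18-fold for the lower ones.

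**Figure D2:**
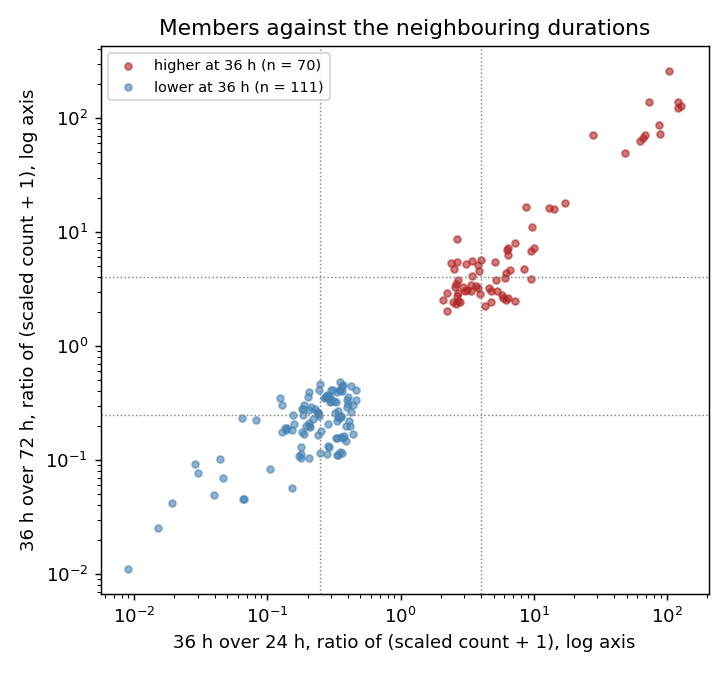
Ratio of 36 h to 24 h (horizontal) and of 36 h to 72 h (vertical), each of scaled count + 1 on a log axis, for the 70 higher (red) and 111 lower (blue) contigs. Dotted lines mark 4-fold. Most points lie within a few fold of the dotted lines, and a separate group of higher contigs lies far above them on both axes, up to 128 against 24 h and 259 against 72 h. Several of these contigs belong to the same clusters and may share reads, so the points are not independent.

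Counting error alone left many of these contigs uncertain. The interval of the 36 h ratio lay wholly past 4-fold for 25 of the 70 higher contigs and 57 of the 111 lower ones. The intervals at 24 h and 72 h both lay within 2-fold of the control for 3 higher and 35 lower contigs. All conditions held with their intervals for 2 higher and 25 lower contigs. The rule chose the contigs on these same ratios, so the intervals do not show steadiness at 24 h and 72 h. At this depth, few of the higher contigs, whose control counts were small, had both intervals within the 2-fold limits.

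The thresholds cut through a continuous spread of values. The smallest ratio kept on the higher side was 4.02 and the nearest one left out was 3.998; on the lower side these were 0.249 and 0.253. A further 102 contigs met every other condition with a ratio between 3 and 4 at 36 h, and 132 with a ratio between 0.25 and 0.333. At 24 h the nearest ratios to the 2-fold limit were 1.96 inside and 2.02 outside for the higher contigs, and 0.503 and 0.488 for the lower ones. At 72 h they were 1.997 and 2.0002 for the higher contigs, and 0.501 and 0.498 for the lower ones. The larger scaled count nearest to the minimum was 50.6 inside and 49.7 outside for the higher contigs, and 50.9 and 49.7 for the lower ones. The split of 70 higher and 111 lower also turned with the scaling: with upper-quartile factors, 113 contigs were higher and 84 lower, so that higher contigs made up 57.4% in place of 38.7%.

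Cluster c27708_g1 held the higher contig with the largest ratio of 36 h to the control, 220 with 1 added to both scaled counts. This contig, c27708_g1_i2, had 14 reads in the control, 33 at 24 h, 4235 at 36 h and 23 at 72 h. At 36 h it was 234-fold above the control (95% interval 139 to 428), 126-fold above 24 h (89.6 to 183) and 143-fold above 72 h (95.2 to 226). The contig c27708_g1_i3 had 28 reads in the control, 52 at 24 h, 6916 at 36 h and 41 at 72 h. The 36 h library thus held over 100 times the scaled count of any other library in both contigs. In c27708_g1_i1 the reads were 23 in the control, 52 at 24 h, 4699 at 36 h and 41 at 72 h, which is 158-fold above the control (105 to 249) and 88.8-fold above 24 h (67.6 to 119). In c27708_g1_i5 they were 10, 21, 1536 and 16 in the same order, 119-fold above the control (64.3 to 248) and 74.6-fold above 72 h (45.8 to 131). All 7 contigs of the cluster shared the peak. The 3 that failed the rule were 107-fold, 147-fold and 202-fold above the control at 36 h, and were left out by a 72 h ratio of 2.10, 2.62 or 3.01, the last one also by a 24 h ratio of 3.20. Summed over the cluster, the scaled count was 136 in the control, 228 at 24 h, 21987 at 36 h and 257 at 72 h.

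Higher contigs of a pair of further clusters had a peak at 36 h with fewer reads. The contig c26840_g1_i1 had 5 reads in the control, 11 at 24 h, 1295 at 36 h and 3 at 72 h. It was 200-fold above the control (85.5 to 617) and 116-fold above 24 h (64.4 to 232) at 36 h. The other 5 contigs of its cluster were between 41.3-fold and 148-fold above the control at 36 h, and each was above the 2-fold limit at 72 h, with ratios between 2.58 and 9.18. The cluster was thus not back at the control level at 72 h, and c26840_g1_i1 alone among its contigs met the rule. The contig c26612_g1_i2 had 4 reads in the control, 5 at 24 h, 551 at 36 h and 5 at 72 h, 106-fold above the control (41.3 to 392) and 85.6-fold above 72 h (36.5 to 265). Of the 6 contigs of its cluster, 2 met the rule, and the 4 others were between 46.8-fold and 79.2-fold above the control at 36 h.

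Cluster c25074_g1 held the most higher contigs, 5 of its 7. Contig c25074_g1_i1 had 144 reads in the control, 314 at 24 h, 5539 at 36 h and 237 at 72 h, a 36 h ratio of 29.7 (25.2 to 35.3). The contigs i2, i5 and i6 of the cluster had 3137, 4627 and 1416 reads at 36 h, against 141, 141 and 127 reads in the control. Contig i4 had fewer reads, 1332 at 36 h and 14 in the control. The size of the peak therefore differed within the cluster, with ratios from 8.56 for i6 to 69.2 for i4. The contigs i3 and i7 were 122-fold and 67.1-fold above the control at 36 h and were left out by a ratio of 2.44 at 24 h and of 3.53 at 72 h.

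A small set of the higher contigs was hardly read outside 36 h. At most 3 reads in each other library were found for 4 contigs, of which 3 had 0 reads in all 3 other libraries. With 0 reads in the control and 71 to 158 reads at 36 h, 4 contigs were 18.3-fold to 40.7-fold above the control when 3 counts take the place of the 0. For such contigs the added 1 sets the 24 h and 72 h ratios, and no steady level is shown. Without the 4 contigs with at most 3 reads in each other library, 66 higher contigs remained.

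On the lower side, cluster c27969_g3 had no reads at 36 h. Its contig c27969_g3_i1 had 118 reads in the control, 124 at 24 h, 0 at 36 h and 80 at 72 h. With 3 counts in place of the 0, it was 50.9-fold below the control, 42.1-fold below 24 h and 34.3-fold below 72 h. The 95% intervals reach down to 40.8-fold, 33.7-fold and 27.3-fold in the same order, with no upper end. The second contig of the cluster also had 0 reads at 36 h, with 132 in the control, 130 at 24 h and 61 at 72 h, and missed the rule by its 72 h ratio of 0.463. In cluster c27854_g2, contig c27854_g2_i5 had 146 reads in the control, 206 at 24 h, 2 at 36 h and 96 at 72 h, 94.5-fold below the control (25.7 to 788). Contig c27854_g2_i1 had 133 reads in the control, 313 at 24 h, 5 at 36 h and 113 at 72 h, 34.5-fold below the control (14.4 to 108) and 63.7-fold below 24 h (27.0 to 198). The cluster as a whole, 5 contigs of which 3 met the rule, had a summed scaled count of 981 in the control, 1040 at 24 h, 38.4 at 36 h and 554 at 72 h.

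The contig c27317_g2_i5 was lower at 36 h at larger counts, with 1301 reads in the control, 3062 at 24 h, 88 at 36 h and 752 at 72 h. It was 19.1-fold below the control (15.4 to 24.0), 35.4-fold below 24 h (28.6 to 44.3) and 11.0-fold below 72 h (8.81 to 13.9). Its 24 h count lay above the control, at a ratio of 1.85. Of the 7 other contigs of its cluster, 4 had 1278 to 1321 reads in the control and 88 to 94 at 36 h, and missed the rule at 24 h with ratios of 2.09 to 2.13. The remaining 3 had 12 to 68 reads in the control and 6 or 7 at 36 h, with 24 h ratios of 2.18 to 2.81. In 1 of these 3, with 6 reads at 36 h and 3 at 72 h, the lowest count was at 72 h. The contigs c19789_g1_i2 and c19789_g1_i1 are the whole of their cluster. Contig c19789_g1_i2 had 107 reads in the control, 164 at 24 h, 10 at 36 h and 188 at 72 h, 13.9-fold below the control (7.25 to 29.7) and 24.2-fold below 72 h (12.9 to 51.3). Contig c19789_g1_i1 had 94, 151, 9 and 173 reads in the same order, 13.5-fold below the control (6.83 to 30.5) and 24.7-fold below 72 h (12.7 to 55.0).

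**Figure D3:**
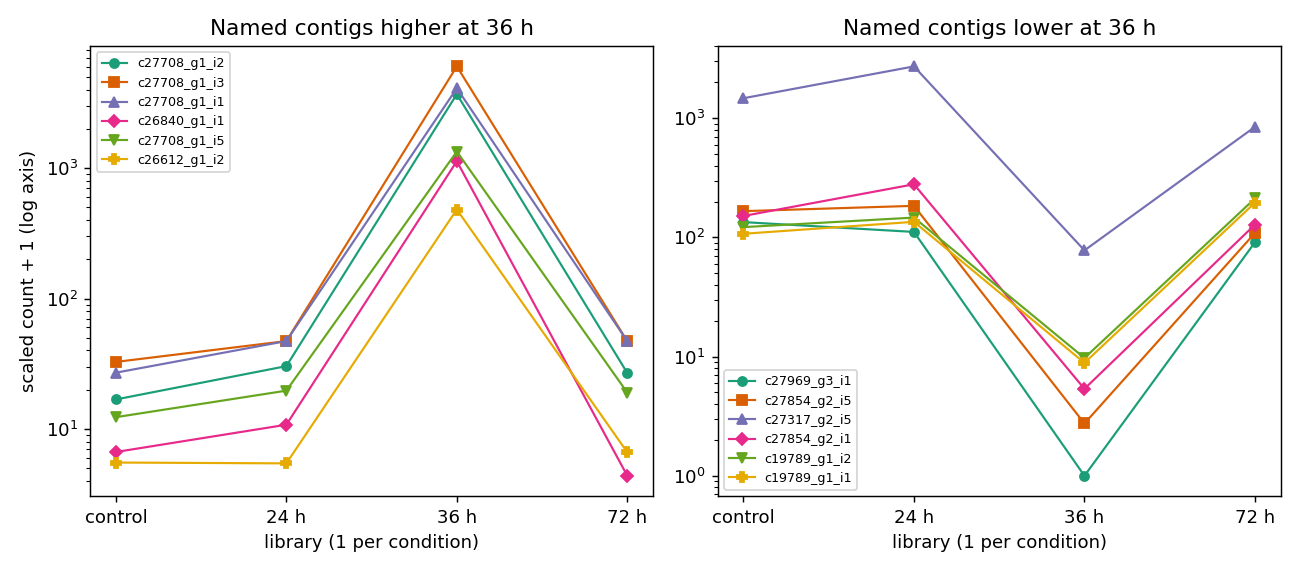
Scaled count + 1 on a log axis of the 6 named higher contigs (left) and the 6 named lower contigs (right) in the control, 24 h, 36 h and 72 h libraries, 1 point per library. On the left each contig has its highest point at 36 h, up to 6036 scaled counts in c27708_g1_i3; on the right each has its lowest point there, down to 0 in c27969_g3_i1.

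The clusters c23390_g1 and c27111_g1 tied for the most lower contigs, with 8 each. All 8 contigs of c23390_g1, the cluster with more reads, were lower at 36 h. They had 1969 to 2319 reads in the control, 1836 to 2239 at 24 h, 544 to 631 at 36 h and 1198 to 1370 at 72 h. The ratio of 36 h to the control lay between 0.210 and 0.215 for the 8 contigs. In c27111_g1, 8 of 9 contigs were lower, with 214 to 586 reads in the control, 169 to 483 at 24 h, 41 to 115 at 36 h and 129 to 351 at 72 h. Their ratios of 36 h to the control ran from 0.115 to 0.201, and that of the ninth contig was 0.279. The counts were thus near-equal in c23390_g1 and spread in c27111_g1. Near-equal counts were also seen elsewhere: in 12 of the 21 clusters with several lower contigs, the control reads of those contigs lay within 1.2-fold of each other, and in 4 of the 8 clusters with several higher contigs the 36 h reads did. The sources used here do not say how reads that match several contigs were counted, and its part in these near-equal counts was not tested. Counted once per cluster, the lower contigs numbered 67 and the higher ones 54.

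The other contigs of the same clusters were not chosen by the rule, though they come from the same libraries and may share reads. Among 82 such partners of higher contigs with enough counts, from 22 clusters, 19 (23.2%) passed 4-fold on the higher side at 36 h. On the lower side 0 passed it. The 19 included every partner in c26840_g1, c26612_g1, c27708_g1 and c25074_g1, so they were concentrated in few clusters. Among 118 partners of lower contigs, from 35 clusters, 45 (38.1%) passed 4-fold on the lower side and 0 on the higher side. Partners in 1 cluster are not independent, so these shares do not count separate genes. In clusters of several contigs, 6.53% of all contigs with enough counts passed 4-fold on the higher side at 36 h and 5.26% on the lower side. The median ratio of 36 h to the control was 2.34 for partners of higher contigs and 0.282 for partners of lower contigs, against 0.963 over all contigs with enough counts. Partners within 2-fold of the control at 36 h numbered 14 and 36. Of the 19 partners above 4-fold, 4 were kept out by 24 h alone, 8 by 72 h alone and 7 by both, and of the 45 below 4-fold these numbers were 24, 11 and 10.

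**Figure D4:**
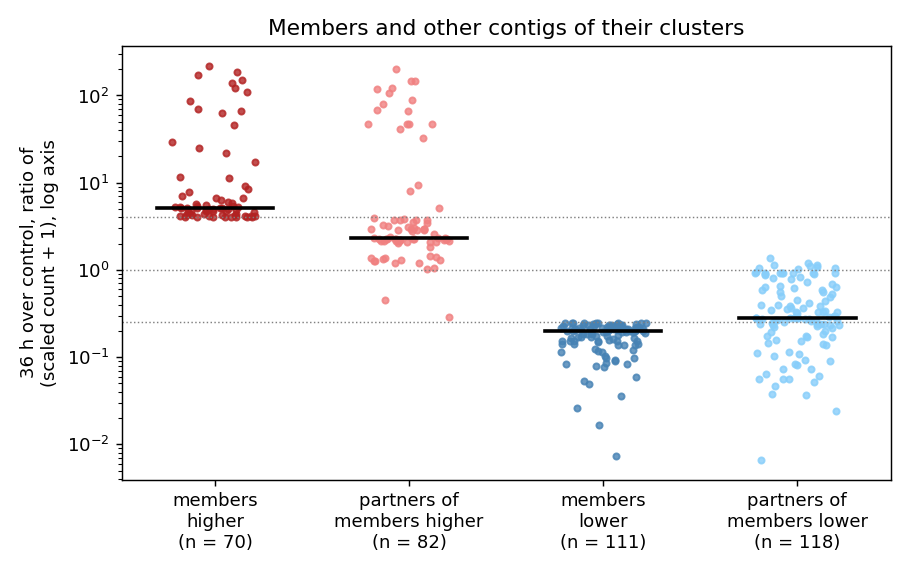
Ratio of 36 h to the control (scaled count + 1, log axis) for higher contigs and their cluster partners, and for lower contigs and their cluster partners. Points are contigs, black bars are medians, and dotted lines mark 4-fold higher, no difference and 4-fold lower. Partners have medians of 2.34 and 0.282, and none lies past the 4-fold line on the opposite side.

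The scaled counts of all contigs in each cluster were summed and set against the control at 36 h. How reads that match several contigs were counted is not known, so a sum may hold the same read more than once. Of the 28 clusters of several contigs with a higher contig, 14 sums passed 4-fold on the higher side, 11 were between 2-fold and 4-fold higher and 3 were within 2-fold. Of the 49 with a lower contig, 38 sums were at least 4-fold below, 8 between 2-fold and 4-fold below and 3 within 2-fold. The sums include the chosen contigs, so a large share of the cluster's reads on them largely fixes a sum past 4-fold. The counts by share are therefore a description, and no share over all clusters is given beside them. Where that share at 36 h was 50% or more, 11 of 14 sums on the higher side were past 4-fold, and where it was under 5%, 0 of 6 were. On the lower side, with the share taken in the control, 25 of 25 sums were past 4-fold at 50% or more and 0 of 4 at under 5%. The smallest share was 0.165% on the higher side and 2.39% on the lower side, so some chosen contigs were minor parts of clusters whose sums did not pass 4-fold. The whole rule, applied to these sums, was met by 11 of the 28 clusters with a higher contig and 26 of the 49 with a lower one. With clusters of a single contig added, the numbers were 37 of 54 and 44 of 67. There the sum is the chosen contig itself, so it meets the rule by definition.

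**Figure D5:**
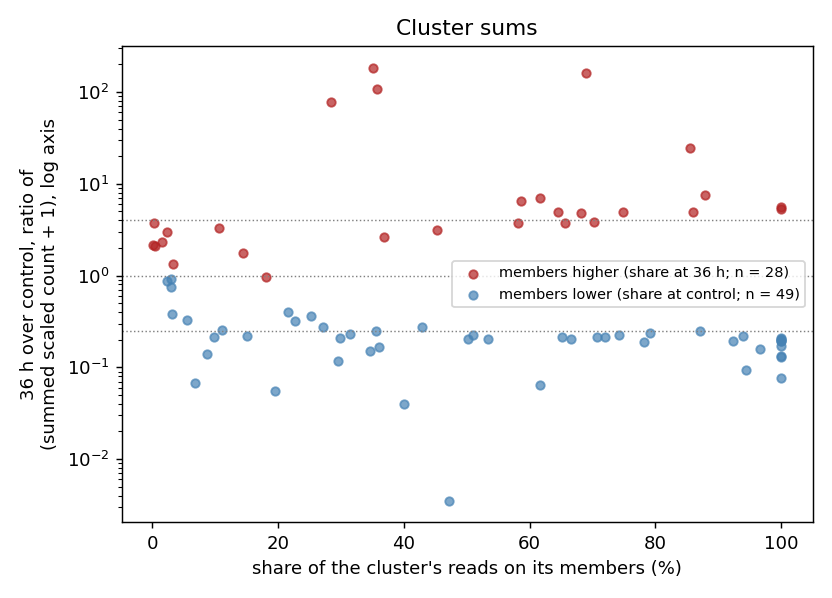
Share of a cluster's reads that fell on its chosen contigs (horizontal, in %) and ratio of 36 h to the control of the cluster's summed scaled count + 1 (vertical, log axis). Points are the 28 clusters of several contigs with higher contigs (red, share at 36 h) and the 49 with lower contigs (blue, share in the control). Dotted lines mark 4-fold and no difference, and all points with a share under 5% lie between the 4-fold lines.

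Of the chosen contigs, 62.9% of the higher and 83.8% of the lower ones lay in clusters of several contigs, against 88.2% of all contigs with enough counts. In 5 assembly components, contigs of more than 1 cluster were chosen, all of them lower. The 54 clusters of higher contigs came from 54 components, so no component held higher contigs of more than 1 cluster. With no share over all components beside it, nothing is read from this direction. Some of these contigs had few reads at 36 h, such as 4 in c19633_g1_i1. An example, picked after its values were seen, is component c22013. Its contig c22013_g1_i1 had 405 reads in the control, 296 at 24 h, 53 at 36 h and 324 at 72 h. Its contig c22013_g2_i1 had 502 reads in the control, 383 at 24 h, 92 at 36 h and 433 at 72 h. Both clusters hold a single contig each, with the lowest count at 36 h.

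By the same rule, fewer contigs stood apart at 36 h than at the other durations. For 24 h there were 299 higher and 347 lower contigs, for 36 h 70 and 111, and for 72 h 2372 and 151. As a share of the contigs past 4-fold at that duration, these were 8.33% and 10.6% at 24 h, 2.30% and 4.05% at 36 h, and 32.7% and 5.71% at 72 h. Contigs with at most 3 reads in each other library made up 59.5% of those higher at 72 h alone, 5.71% of those at 36 h alone and 3.01% of those at 24 h alone. With 1 library per condition these differences could not be tested, and the 3 sets share the control.

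In the authors' deposited table of 36 h against the control, 15 of the 70 higher contigs and 21 of the 111 lower ones had a status of up or down. That table called 1.72% of its contigs higher and 1.02% lower, and the rule used the same counts, so nothing is read from the difference. The authors' deposited table gave 9 higher contigs and 0 lower ones an adjusted p-value under 0.05. DESeq is among the tools that the submitters' processing notes name. Over all its contigs these shares were 0.334% and 0.114%, and nothing is read from this difference either. In the authors' deposited table the smallest was 7.51e-05 for c27708_g1_i2, and the smallest of a lower contig was 0.128 for c27969_g3_i1. In the authors' deposited table of 72 h against 36 h, 16 higher contigs were called down at 72 h (0.288% of all) and 20 lower contigs up (2.72% of all). In the same authors' deposited table, 10 higher contigs from 4 clusters had an adjusted p-value under 0.05, where 0.0337% of all were so called down, and 0 lower contigs did, where 0.971% were so called up. The rule fixes a gap of at least 2-fold between 36 h and 72 h and sets a minimum count. Nothing is therefore read from the differences between the chosen contigs and all contigs in that table. The authors' deposited tables of 24 h and of 72 h against the control called 0 of the 181 contigs in either direction by their status, where 3.4% of all contigs in the first and 3.27% in the second were called. The 2-fold limits of the rule at 24 h and 72 h largely fix this 0. These p-values rest on 1 library per condition, with no spread between replicates behind them.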

How the data were processed

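RNA from whole thalli was sequenced in 4 libraries, 1 per condition. The 5 tables hold read counts per contig, deposited by the authors as raw counts. Beside them stand a signal (the counts over a size factor), a linear fold change, and a p-value and adjusted p-value, each as deposited by the authors per the file headers. Per the submitters' processing notes, the tools were cutadapt, Bowtie2 and DESeq. The sources used here give neither their settings nor the assembler.

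Counts were joined by contig, and the 6 of 6 repeated count columns were identical. Median-of-ratios size factors over contigs read in all 4 libraries were 0.885 (control), 1.13 (24 h), 1.15 (36 h) and 0.890 (72 h). With 1 library per condition no test was run and no p-value computed. The calculation of the rule was checked on simulated counts, which carry counting error alone and do not bear on how the rule behaves between thalli. The contigs and lists were chosen with earlier results of these data known.

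Named contigs are, for 36 h over the control, over 24 h and over 72 h in turn, the 2 higher and 2 lower contigs whose 95% interval bound nearest to 1 lay farthest from it, skipping those already named, plus the cluster with most higher and the one with most lower contigs (ties going to the larger summed scaled count). Alternatives were other scalings (library totals, upper quartile, TMM from edgeR 4.0.16), pseudocounts, minimums, thresholds, cluster sums and the authors' deposited fold change. Calculations used Python 3.11.15, numpy 2.4.6, pandas 2.3.3 and scipy 1.17.1. No column of read counts was left unused. The scaled counts were computed from the read counts and not from the deposited signal.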

Additional observations from a re-analysis of the deposited data

How the results depend on the processing

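With 70 higher and 111 lower contigs as reported, the numbers were 113 higher under upper-quartile scaling, 247 and 237 with a minimum of 10 scaled counts, 561 and 506 with none, and 22 and 61 with a minimum of 200. They were 20 and 22 at 8-fold, 20 and 16 with 24 h and 72 h held within 1.5-fold, 248 and 402 within 3-fold, and 38 and 50 for clusters summed. Counted once per cluster, a choice made after seeing the data, 67 were lower. The cause of the shift under upper-quartile scaling was not tested; that scaling moves every ratio to the control by 0.10 on the log2 scale at 36 h and by -0.18 at 72 h. Library totals move the 24 h ratios by -0.15. Of the 70 and 111 contigs, 68 and 80 were also found with the upper quartile, 70 and 101 with TMM, 56 and 94 with library totals, 50 and 93 with a pseudocount of 5, 67 and 110 with one of 0.5, and 63 and 104 with the authors' deposited fold change. The numbers of contigs at least 4-fold from 24 h or 72 h, and of partners past 4-fold, stayed within 1.5 times under the scalings and pseudocounts tried. Of 60 recomputed ratios of named contigs, 58 stayed inside their counting interval and none changed direction. No paired analysis was possible because each condition has 1 library. Depth limits the higher contigs most, as 37 of 70 had under 100 scaled counts in both libraries.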
